A study of Arabidopsis thaliana with 18 samples.

Results

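The genes described are 10 homeobox loci of the TALE superclass in Arabidopsis thaliana, chosen by a list of locus identifiers: the class I KNOX genes STM, KNAT1, KNAT2 and KNAT6, the class II KNOX genes KNAT3, KNAT4 and KNAT5, and the BELL genes BLH1, BLH2 and BLH4. They are 10 of the 33602 loci in the count table. RNA-seq reads were counted in 18 libraries of leaf 5, in 6 groups of 3 libraries: the margin and the center piece of wild-type Col-0 (Col0), of the tcp2-tcp4 mutant (double mutant) and of the tcp2-tcp3-tcp4-tcp10 mutant (quadruple mutant). Both mutants carry tcp2 and tcp4, the quadruple mutant carries tcp3 and tcp10 in addition, and the labels name no alleles. Leaf 5 was taken when leaf 7 emerged, at Zeitgeber time 6, from plants grown at 23 °C with 16 h of light, and a library pooled 15 to 20 plants. The quadruple mutant was moved to the greenhouse first and Col-0 last, with 2 days between lines, and the effects of genotype and of plant age cannot be told apart.

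KNOX and BELL proteins are transcription factors that bind DNA as pairs of 1 KNOX and 1 BELL partner. Class I KNOX genes are known for keeping cells of the shoot apex undifferentiated, and in simple leaves such as those of Arabidopsis they are normally kept silent by AS1, AS2 and other repressors. Class II KNOX genes are expressed in leaves and other maturing organs and are known to promote differentiation, opposite to class I. BLH2 and BLH4, also called SAW1 and SAW2, are known to limit growth and class I KNOX expression at the leaf margin. The TCP genes mutated here belong to the miR319-regulated group, whose proteins end cell proliferation in leaves and are known to act with AS2 in the repression of class I KNOX genes. The title of the series gives its question as the control of gene expression in parts of the leaf by these factors.

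Because 2 pairs of members that carry the results are close relatives, the longest stretch that each pair shares is shown first, in capitals with 10 flanking bases of the transcript in lower case on either side (RefSeq annotation of TAIR10.1). KNAT3 and KNAT4 were identical over 85.2% of 1167 aligned coding bases, and their longest shared run was 41 bases, in coding sequence that spans the junction of exons 4 and 5 (chr5:8737752-8737870, plus strand, and chr5:3512425-3512623, plus strand, intron included). BLH2 and BLH4 were identical over 80.3% of aligned coding bases, with a longest run of 39 bases in coding exon 2 (chr4:17370389-17370427, plus strand, and chr2:10111957-10111995, minus strand).
KNAT3: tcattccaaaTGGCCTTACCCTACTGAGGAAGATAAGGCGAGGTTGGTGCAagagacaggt
KNAT4: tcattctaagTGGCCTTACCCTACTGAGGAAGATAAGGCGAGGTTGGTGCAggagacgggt
BLH2: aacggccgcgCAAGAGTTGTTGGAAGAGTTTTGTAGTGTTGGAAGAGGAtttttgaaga
BLH4: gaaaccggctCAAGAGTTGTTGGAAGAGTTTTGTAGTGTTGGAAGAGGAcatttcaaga
The flanks differ within a few bases on both sides of the capitals in each pair. The read length is not given in the sources used here, so how many reads of each pair could align to both genes is unknown. KNAT2 and KNAT6 also shared a run of 41 bases and were identical over 79.6% of aligned coding bases.

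The bases before the annotated start of a gene are shown for KNAT4, the one member whose window held the longer of 2 sequences that miR319-regulated TCP proteins are known to bind, and for KNAT3, its closest relative. The search covered GTGGNCC and GGACC on both strands, in windows from 250 bases before to 50 bases after the annotated start. The KNAT4 stretch is chr5:3509583-3509832 on the plus strand, the KNAT3 stretch chr5:8735694-8735943 on the plus strand, and capitals mark the matches.
KNAT4: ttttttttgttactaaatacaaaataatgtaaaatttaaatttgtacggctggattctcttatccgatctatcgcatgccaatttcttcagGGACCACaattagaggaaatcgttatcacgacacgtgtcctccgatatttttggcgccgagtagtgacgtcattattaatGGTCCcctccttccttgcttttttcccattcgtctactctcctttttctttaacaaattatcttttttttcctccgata
KNAT3: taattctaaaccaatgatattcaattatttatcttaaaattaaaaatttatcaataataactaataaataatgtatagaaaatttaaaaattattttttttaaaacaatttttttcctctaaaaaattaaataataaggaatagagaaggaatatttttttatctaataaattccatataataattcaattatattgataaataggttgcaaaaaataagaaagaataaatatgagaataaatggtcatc
In KNAT4 the first block of capitals, 159 bases before the start, is a match to GTGGNCC read on the other strand and overlaps a match to GGACC. The second block, 79 bases before the start, is GGACC read on the other strand. The KNAT3 window held neither sequence. Among the other members, KNAT6 had 1 match to GGACC, and the remaining 7 had none. Of all 27443 gene windows of 300 bases, 5.38% held GTGGNCC and 16.5% held GGACC, so the 1 and 2 member windows with a match are a description and say nothing about binding.

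Gene reads lay between 5.93 M and 12 M per library. Reads aligned to several places were 16.0% of the total in double mutant margin 3 and 8.6% in Col-0 margin 1, against 3.71% to 4.97% in the other libraries. TCP2 fell to 16.9% of the Col-0 level in the margin of the double mutant and to 14% in that of the quadruple mutant, and TCP4 fell to 18.6% and 21.6%. TCP3 and TCP10, mutated in the quadruple mutant alone, fell to 15.5% and 11.2% of Col-0 in its margin and were at 96.7% and 114% in the double mutant margin, where neither passed the test. Differences below are log2 fold changes ± SE from the quasi-likelihood F test of edgeR with 3 libraries per group, and a gene is called at a Benjamini-Hochberg adjusted p under 0.05 over the 17763 loci that passed a filter on low counts. Levels are CPM, reads scaled to the library total with TMM factors, in libraries 1, 2 and 3 in that order, with mean ± SD (n = 3). Comparisons of both mutants with Col-0 share the Col-0 libraries. In tissue pieces, fewer cells of a type and less RNA per cell cannot be told apart.

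Class I KNOX transcripts were nearly absent from leaf 5 in every group. STM, the factor that maintains the shoot meristem (AT1G62360, chr1:23058582-23062063, minus strand), had 1 read in all 18 libraries, in quadruple mutant margin 1. KNAT1, also called BREVIPEDICELLUS and known for internode growth (AT4G08150, chr4:5147699-5151159, minus strand), had 0 reads in each of the 12 Col-0 and double mutant libraries. In the quadruple mutant margin, libraries 1, 2 and 3 had 2, 3 and 4 KNAT1 reads, and in its center they had 1, 0 and 0. Every margin library of the quadruple mutant was thus above every library of the other 2 genotypes, at counts close to the limit of detection.

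The pooled level of KNAT1 in the quadruple mutant margin was 0.279 CPM, with an exact Poisson 95% interval of 0.127 to 0.529 that covers counting error only. A count of 0 allows up to 0.143 CPM in the Col-0 margin and 0.113 CPM in the double mutant margin, taking 3 counts over the group as the floor. The pooled level was 1.95-fold the Col-0 margin floor and 2.47-fold the double mutant margin floor, without the counting error of the quadruple mutant reads. The exact Poisson 95% intervals for 0 reads reached 0.176 CPM in the Col-0 margin and 0.139 CPM in the double mutant margin. Both overlap with the interval of the quadruple mutant margin, so these folds are not lower bounds. KNAT1 did not pass the filter on low counts. A 2-sided exact permutation test of 3 against 3 libraries, added after seeing the data, gave p = 0.1, the smallest p that this design allows. When the filter was left out, edgeR gave an adjusted p of 0.0468 against the Col-0 margin and 0.047 against the double mutant margin. The same fit gave an adjusted p of 0.141 for margin against center within the quadruple mutant, where the ratio of depth-scaled reads was 8.16 with a 95% counting interval of 1.13 to 358.

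KNAT2, expressed at the apex and in carpels in Arabidopsis (AT1G70510, chr1:26576486-26582879, plus strand), had 12 reads in all, spread over 8 of 18 libraries. By group these were 3 in the Col-0 margin, 5 in the double mutant margin, 2 in the quadruple mutant margin, 2 in the Col-0 center and 0 in both mutant centers. Between the margins, the quadruple mutant to Col-0 ratio was 0.433 (95% counting interval 0.0362 to 3.78). No difference of KNAT2 between genotypes was detectable at this depth.

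KNAT6, the close relative of KNAT2 that acts at organ boundaries (AT1G23380, chr1:8297241-8302651, minus strand), was the one class I gene that passed the filter. Margin libraries 1, 2 and 3 held 1, 4 and 0 KNAT6 reads for Col-0, 9, 10 and 2 for the double mutant and 6, 17 and 10 for the quadruple mutant. Center libraries held 4, 7 and 8 reads for Col-0, 6, 5 and 12 for the double mutant and 8, 12 and 11 for the quadruple mutant. The Col-0 margin was the lowest group, and its CPM did not overlap with the quadruple mutant margin.

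Between the margins of Col-0 and the quadruple mutant, the mean KNAT6 level rose from 0.220 ± 0.248 to 1.01 ± 0.444 CPM (log2 fold change 2.04 ± 0.62, adjusted p = 0.0109). This call was lost without quadruple mutant margin 2 (1.65, adjusted p = 0.0665) and without Col-0 margin 3 (1.48, adjusted p = 0.0608), and without Col-0 margin 2 the value was 3.48 (adjusted p = 0.00437). In the double mutant margin the difference was 1.66 ± 0.67 (adjusted p = 0.109), and without Col-0 margin 2 it was 3.10 (adjusted p = 0.0448). In the center, KNAT6 was at 0.770 ± 0.252 CPM in Col-0 and 1.09 ± 0.324 CPM in the quadruple mutant, which gave 0.46 ± 0.46 (95% interval −0.50 to 1.42, adjusted p = 0.487). The difference between the margin and center effects in the quadruple mutant, relative to Col-0, was 1.58 ± 0.80 and did not pass the test (adjusted p = 0.191). KNAT6 passed the filter only through the groups in which it was higher, so its call is no support for the count of members.

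**Figure D1:**
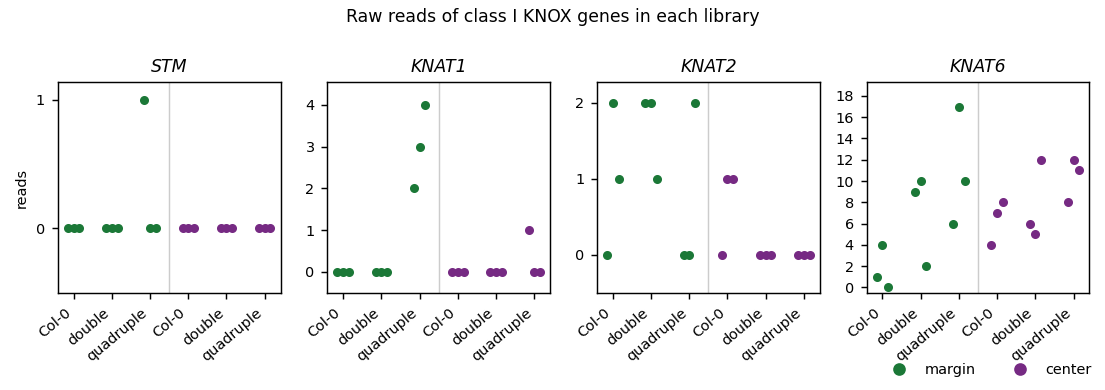
Raw reads of the 4 class I KNOX genes in each library (y axis, reads, with a scale of its own for each gene), by genotype, with margin libraries in green and center libraries in purple. KNAT1 has reads in quadruple mutant libraries alone (2, 3 and 4 in the margin), while KNAT6 is lowest in the Col-0 margin (1, 4 and 0 reads).

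Markers of the shoot apex, where class I KNOX genes are normally active, were as follows. WUS, the organizing-center factor, had 0 reads in all libraries, CLV3 had 2 reads and UFO had 3 reads over all 18 libraries. CLV1, a receptor kinase gene that was the 1 of these 4 genes to pass the filter, made up nearly all of the summed level, which for the margin was 62.8 to 67.0 CPM with Col-0 and 61.3 to 68.6 CPM with the quadruple mutant. CLV1 differed from Col-0 by 0.02 ± 0.07 in the margin of the quadruple mutant (adjusted p = 0.879) and by 0.25 ± 0.07 in its center (adjusted p = 0.0102). CLV1 was also called higher in the double mutant than in Col-0, by 0.26 in the margin and 0.27 in the center. WUS, CLV3 and UFO were thus at or near 0 in every group, while mean CLV1 levels lay between 52.6 CPM (Col-0 center) and 77.6 CPM (double mutant margin).

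The class II KNOX genes and the 3 BELL genes were expressed in every library. Relative to coding length in the Col-0 margin, KNAT4 was highest at 46.7 ± 1.37 CPM per kb, followed by KNAT3 at 33.0 ± 1.44, BLH4 at 27.9 ± 0.520 and KNAT5 at 14.9 ± 0.892. BLH2 came next at 12.3 ± 1.01, then BLH1 at 9.97 ± 1.25 and KNAT6 at 0.222 ± 0.250 CPM per kb. Neighbours in this order lay further apart than their SDs. Relative to the length of all annotated exons, the leading 3 were close together, with 21.8 ± 0.639 CPM per kb for KNAT4, 20.9 ± 0.910 for KNAT3 and 19.8 ± 0.369 for BLH4, so the spacing of these levels depends on the length used.

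In the margin, 6 of the 7 members that passed the filter were called between the quadruple mutant and Col-0, 2 higher and 4 lower, where 43.9% of all loci tested were called, 22.1% higher and 21.8% lower. The members that fell were KNAT3, KNAT4, BLH2 and BLH4, and those that rose were BLH1 and KNAT6, the latter a gene that passed the filter only through the groups in which it was higher. The median log2 fold change of the 7 was −0.56, against 0.03 over all loci tested. The members were chosen with earlier results of these data known, so counts and medians set beside the background are a description. In the center, 5 of 7 were called, 1 higher and 4 lower, where the background was 31.1% (15.2% higher, 15.8% lower), and the median was −0.34 against 0.01. The double mutant had 1 of 7 called in the margin, lower (background 14.1%, of which 7.81% lower), and 2 of 7 in the center, 1 higher and 1 lower (background 6.15%, made up of 3.58% higher and 2.57% lower).

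**Figure D2:**
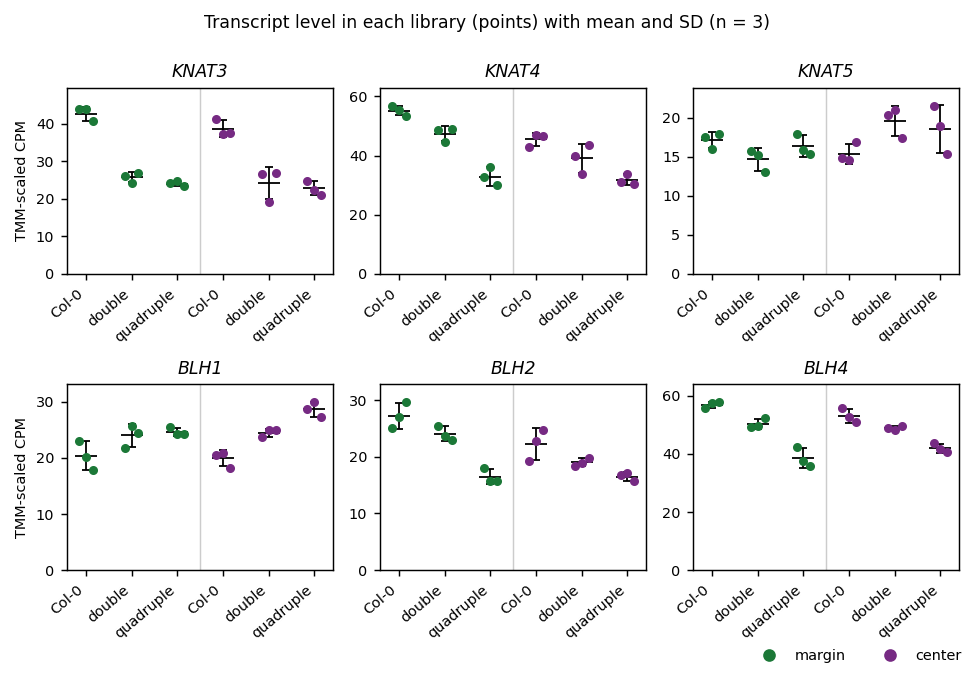
Transcript level (y axis, TMM-scaled CPM, starting at 0, with a scale of its own for each gene) of the 3 class II KNOX and 3 BELL genes in each library, by genotype, with margin libraries in green, center libraries in purple and the mean ± SD of 3 libraries in black. KNAT3 is lower in both mutants, KNAT4, BLH2 and BLH4 are lowest in the quadruple mutant, and BLH1 is highest in the quadruple mutant center at 28.6 ± 1.39 CPM.

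KNAT3, a class II gene with a role in root, seed and leaf development (AT5G25220, chr5:8735944-8738601, plus strand), fell in both mutants. In the margin its level was 43.8, 43.8 and 40.6 CPM in Col-0, 26.1, 24.2 and 26.8 CPM in the double mutant and 24.1, 24.6 and 23.3 CPM in the quadruple mutant. In the center it was 41.2, 37.2 and 37.6 CPM in Col-0, 26.5, 19.2 and 26.9 CPM in the double mutant and 24.8, 22.4 and 21.1 CPM in the quadruple mutant. Every mutant library lay below every Col-0 library of the same piece, while the 2 mutants overlapped.

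KNAT3 differed from Col-0 by −0.74 ± 0.09 in the double mutant margin (adjusted p = 2.55e-05) and by −0.83 ± 0.09 in the quadruple mutant margin (adjusted p = 2.8e-07). In the center the differences were −0.66 ± 0.10 (adjusted p = 0.000261) and −0.76 ± 0.09 (adjusted p = 4.07e-06). Between the mutants KNAT3 did not pass the test, with −0.09 ± 0.09 in the margin (95% interval −0.29 to 0.11, adjusted p = 0.535) and −0.10 ± 0.10 in the center (95% interval −0.31 to 0.11, adjusted p = 0.629). KNAT3 was the only member called in the double mutant margin.

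KNAT4, the class II gene closest to KNAT3 (AT5G11060, chr5:3509833-3513741, plus strand), was called against Col-0 in the quadruple mutant and not in the double mutant. Its margin level was 56.7, 55.4 and 53.5 CPM in Col-0, 48.6, 44.6 and 49.1 CPM in the double mutant and 32.7, 36.0 and 29.9 CPM in the quadruple mutant. Its center level was 42.9, 46.8 and 46.7 CPM in Col-0, 39.9, 33.6 and 43.6 CPM in the double mutant and 31.2, 33.9 and 30.4 CPM in the quadruple mutant. In the margin the 3 genotypes did not overlap, and the double mutant lay between the other two. In the center the double mutant overlapped with both other groups.

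In the quadruple mutant KNAT4 differed from Col-0 by −0.74 ± 0.08 in the margin (adjusted p = 4.25e-07) and by −0.51 ± 0.09 in the center (adjusted p = 0.000145). The double mutant differed by −0.22 ± 0.08 in the margin (95% interval −0.40 to −0.05, adjusted p = 0.0876) and by −0.21 ± 0.09 in the center (adjusted p = 0.159). The difference between the mutants passed the test in the margin (−0.52 ± 0.08, adjusted p = 9.19e-05), where 3 of 7 members, KNAT4, BLH2 and BLH4, were called, all lower, at a background of 25.8% (13.6% lower). In the center 2 of 7, KNAT4 and BLH4, were called between the mutants, both lower, at a background of 7.93% (4.37% lower). The KNAT4 value there was −0.30 ± 0.09 (adjusted p = 0.0414), and it was called in 4 of 12 alternative settings, the call being lost without center 1 or 3 of either mutant, with DESeq2, without the filter, with the libraries compared alone and with the number as a replicate block.

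KNAT5, the third class II gene (AT4G32040, chr4:15493989-15496381, plus strand), was called in none of the 12 comparisons without a replicate block. With margin and center libraries of equal number paired as a block, edgeR called it between the pieces of the double mutant (−0.42, adjusted p = 0.00233). That fit also called the difference of this effect from the one in Col-0 (−0.56, adjusted p = 0.00817). In the margin KNAT5 was at 17.5, 16.0 and 17.9 CPM in Col-0, 15.8, 15.2 and 13.1 CPM in the double mutant and 18.0, 15.9 and 15.4 CPM in the quadruple mutant. In the center it was at 14.8, 14.6 and 16.9 CPM in Col-0, 20.4, 21.0 and 17.4 CPM in the double mutant and 21.5, 18.9 and 15.4 CPM in the quadruple mutant. The double mutant lay wholly below Col-0 in the margin and wholly above it in the center, while the quadruple mutant overlapped with Col-0 in both pieces.

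In the quadruple mutant, KNAT5 differed from Col-0 by −0.05 ± 0.12 in the margin (95% interval −0.30 to 0.19, adjusted p = 0.743). In the center the difference was 0.28 ± 0.12 (95% interval 0.04 to 0.52, adjusted p = 0.0744), and without quadruple mutant center 3 it was 0.39 (adjusted p = 0.0144). For the double mutant center it was 0.33 ± 0.12 (adjusted p = 0.106). These intervals leave out a fall as large as that of KNAT3 in the same pieces.

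Summed over KNAT3, KNAT4 and KNAT5, class II KNOX transcripts were at 112 to 118 CPM in the Col-0 margin, 84.0 to 90.6 CPM in the double mutant margin and 68.7 to 76.6 CPM in the quadruple mutant margin. The sums of the 3 genotypes did not overlap in the margin. In the center the sums were 98.6 to 101 CPM in Col-0, 73.8 to 87.8 CPM in the double mutant and 66.9 to 77.5 CPM in the quadruple mutant, so the mutants overlapped with each other and not with Col-0. The sums were not tested, since they follow from the 3 genes above.

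Per coding kb, the make-up of the class II pool also differed between genotypes. KNAT3 made up 34.9 ± 0.881% of it in the Col-0 margin, 27.3 ± 0.745% in the double mutant margin and 30.6 ± 0.973% in the quadruple mutant margin. KNAT4 made up 49.4 ± 0.235%, 55.2 ± 1.17% and 45.8 ± 2.03% in the same order, so its margin share was highest in the double mutant, in which KNAT3 was called lower and KNAT4 was not. KNAT5 made up 15.8 ± 1.11%, 17.6 ± 1.90% and 23.6 ± 1.77%. In the center, KNAT5 made up 16.4 ± 1.11% in Col-0, 25.0 ± 4.47% in the double mutant and 26.5 ± 2.45% in the quadruple mutant. KNAT3 made up 36.5 ± 2.40%, 27.0 ± 2.54% and 29.0 ± 1.15% there in the same order. The center share of KNAT4 was 47.1 ± 2.04%, 47.9 ± 2.40% and 44.5 ± 2.97%, with no peak in the double mutant beyond these SDs.

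**Figure D3:**
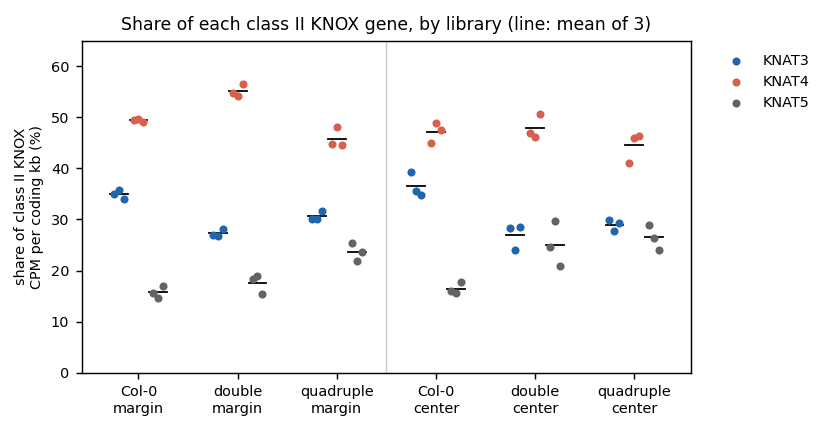
Share of each class II KNOX gene (y axis, percent of their summed CPM per kb of coding length) in each library, by genotype and piece, with a line at the mean of 3 libraries. KNAT4 holds the largest share in every library and peaks in the double mutant margin (54.2 to 56.5%), while KNAT5 is above its Col-0 share in the quadruple mutant.

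BLH2 and BLH4 were both lower in the quadruple mutant. BLH2 (AT4G36870, chr4:17368915-17374011, plus strand) was at 25.1, 27.0 and 29.6 CPM in the Col-0 margin, 25.5, 23.7 and 23.0 CPM in the double mutant margin and 18.0, 15.7 and 15.7 CPM in the quadruple mutant margin. In the center it was at 19.3, 22.8 and 24.8 CPM in Col-0, 18.3, 18.9 and 19.7 CPM in the double mutant and 16.7, 17.1 and 15.7 CPM in the quadruple mutant. All quadruple mutant libraries lay below those of both other genotypes in the same piece, and Col-0 and the double mutant overlapped.

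BLH2 fell by 0.73 ± 0.09 on the log2 scale in the quadruple mutant margin (adjusted p = 1.72e-06) and by 0.43 ± 0.09 in its center (adjusted p = 0.00154). Against the double mutant it fell by 0.56 ± 0.09 in the margin (adjusted p = 0.000107), and the center value was −0.20 ± 0.10 (95% interval −0.41 to 0.00, adjusted p = 0.24). The double mutant differed from Col-0 by −0.17 ± 0.09 in the margin (adjusted p = 0.239) and by −0.23 ± 0.10 in the center (adjusted p = 0.17).

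BLH4 (AT2G23760, chr2:10107707-10113327, minus strand) was at 55.7, 57.4 and 57.7 CPM in the Col-0 margin, 49.2, 49.7 and 52.4 CPM in the double mutant margin and 42.5, 37.4 and 35.8 CPM in the quadruple mutant margin. In the center it was at 55.6, 52.8 and 50.8 CPM in Col-0, 48.9, 48.2 and 49.6 CPM in the double mutant and 43.6, 41.6 and 40.6 CPM in the quadruple mutant. The 3 genotypes did not overlap in either piece, with Col-0 highest and the quadruple mutant lowest. BLH4 fell by 0.56 ± 0.07 in the quadruple mutant margin (adjusted p = 5.9e-07) and by 0.34 ± 0.07 in its center (adjusted p = 0.000496). The double mutant differed from Col-0 by −0.18 ± 0.07 in the margin (95% interval −0.32 to −0.04, adjusted p = 0.0738) and by −0.12 ± 0.07 in the center (adjusted p = 0.319), short of the threshold. Between the mutants the BLH4 difference was −0.38 ± 0.07 in the margin (adjusted p = 0.000165) and −0.22 ± 0.07 in the center (adjusted p = 0.0437), the latter called in 2 of 12 alternative settings and lost without any one of the 6 libraries.

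BLH1, a BELL factor known to pair with KNAT3 and to take part in seed and embryo sac development (AT2G35940, chr2:15088762-15092415, minus strand), was higher in the quadruple mutant, opposite to BLH2 and BLH4. In the margin it was at 23.0, 20.1 and 17.9 CPM in Col-0, 21.8, 25.7 and 24.4 CPM in the double mutant and 25.5, 24.2 and 24.2 CPM in the quadruple mutant. In the center it was at 20.5, 20.9 and 18.2 CPM in Col-0, 23.7, 25.0 and 24.9 CPM in the double mutant and 28.6, 30.0 and 27.2 CPM in the quadruple mutant. In the center the 3 genotypes did not overlap, and in the margin the quadruple mutant lay above Col-0 while the double mutant overlapped with both.

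BLH1 rose by 0.53 ± 0.09 in the quadruple mutant center (adjusted p = 8.61e-05) and was called there in all 12 alternative settings. It rose by 0.28 ± 0.09 in the quadruple mutant margin (adjusted p = 0.0126). The margin call was lost with DESeq2 (adjusted p = 0.0783), without quadruple mutant margin 1 (adjusted p = 0.0509) and without Col-0 margin 3 (adjusted p = 0.0905). The double mutant showed BLH1 higher by 0.31 ± 0.09 in the center (adjusted p = 0.048), a call kept in 3 of 12 alternative settings and lost without any one of the 6 libraries, and the margin value was 0.24 ± 0.09 (adjusted p = 0.0906). The gene overlaps a non-coding locus on the other strand, AT2G35945, over 929 exon bases, and that locus had 0 reads in all 18 libraries. Whether counting used strand is not given in the sources used here, so reads of the 2 loci cannot be told apart where they overlap.

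**Figure D4:**
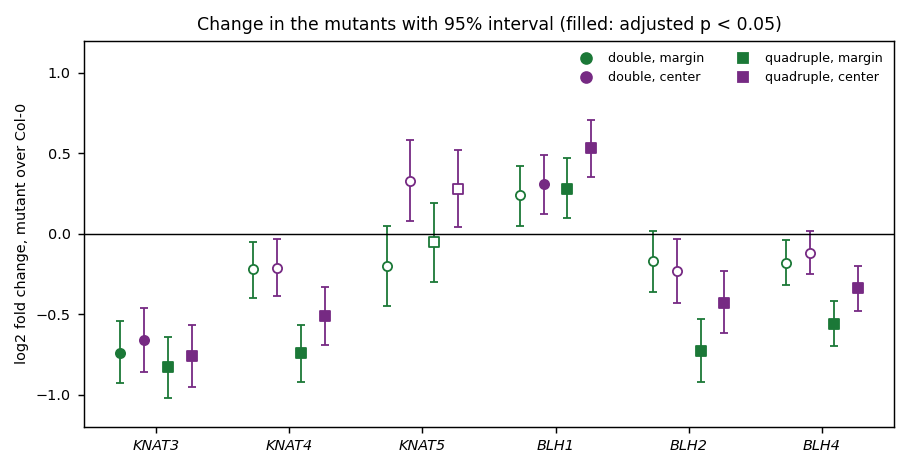
Log2 fold change of each mutant over Col-0 (y axis) with its 95% interval from the edgeR fit, for 3 class II KNOX and 3 BELL genes, with circles for the double mutant, squares for the quadruple mutant, green for the margin and purple for the center, filled where the adjusted p is under 0.05. KNAT3 lies near the same value in all 4 comparisons (−0.66 to −0.83), whereas KNAT4, BLH2 and BLH4 are furthest from 0 in the quadruple mutant margin.

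Between margin and center within a genotype, few members were called. In Col-0, 2 of 7 were called, both higher in the margin, at a background of 11.4% (5.30% higher): KNAT4 with 0.28 ± 0.08 (adjusted p = 0.0345) and BLH2 with 0.29 ± 0.09 (adjusted p = 0.0445). The Col-0 margin and center libraries did not overlap for either gene. The difference furthest from 0 in Col-0 was that of KNAT6, at 0.220 ± 0.248 CPM in the margin and 0.770 ± 0.252 CPM in the center (−1.64 ± 0.68, 95% interval −3.06 to −0.22), which was not called (adjusted p = 0.133). In the double mutant 1 of 7 was called at a background of 7.51% (2.47% higher), BLH2 with 0.35 ± 0.09 (adjusted p = 0.0276). In the quadruple mutant 1 of 7 was called at a background of 25.6% (13.5% lower), BLH1, which was lower in the margin by −0.22 ± 0.08 (adjusted p = 0.0484). KNAT4 (0.05 ± 0.09, 95% interval −0.13 to 0.22) and BLH2 (−0.01 ± 0.09, 95% interval −0.20 to 0.19) did not pass the test there.

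Each of these calls was lost in part of the alternative settings. KNAT4 in Col-0 was called in 6 of 14, and leaving out any 1 of the 6 Col-0 libraries lost it (adjusted p = 0.0605 to 0.134). BLH2 in Col-0 was called in 7 of 14 and was lost without Col-0 center 1 or 2 and without Col-0 margin 2 or 3 (adjusted p = 0.0843 to 0.219). BLH2 in the double mutant was called in 7 of 14 and was lost without center 1, 2 or 3 or margin 1 or 2 of that genotype, and BLH1 in the quadruple mutant was called in 6 of 13 and was lost without center 1 or 2 or margin 1, 2 or 3. When the leaf pool was entered as a replicate block, which pairs the margin and center libraries of equal replicate number, the adjusted p became 0.0015 for KNAT4 and 0.0112 for BLH2 in Col-0, 0.00476 for BLH2 in the double mutant and 0.0125 for BLH1 in the quadruple mutant. The same block added KNAT4 (0.28, adjusted p = 0.00301) and KNAT5 (−0.42, adjusted p = 0.00233) in the double mutant, whose values without it were 0.27 ± 0.09 (adjusted p = 0.0623) and −0.38 ± 0.12 (adjusted p = 0.0544). With this block the calls over all loci in that comparison rose from 1334 to 3041.

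The differences between genotypes in the margin-to-center effect were tested directly, and edgeR called 0 of 7 members in each of the 3 tests, at backgrounds of 0.439% (double mutant against Col-0), 17.2% (quadruple mutant against Col-0) and 2.90% (between the mutants). At an unadjusted p under 0.05 they held 1, 2 and 1 members, and DESeq2 called 0 in each. The 2 members with unadjusted p under 0.05 in the quadruple mutant against Col-0 were BLH2 (−0.30 ± 0.13, adjusted p = 0.13) and BLH4 (−0.22 ± 0.09, adjusted p = 0.107). KNAT5 in the double mutant against Col-0 had −0.53 ± 0.17 (adjusted p = 0.197), and with the leaf pool as a replicate block it was called (−0.56, adjusted p = 0.00817). That block raised the calls over all loci in this test from 78 to 1347. BLH4 was called without quadruple mutant margin 1 (−0.32, adjusted p = 0.0204), and so was KNAT5 without quadruple mutant center 3 (−0.46, adjusted p = 0.0499). With all libraries, the larger fall of BLH2, BLH4 and KNAT4 in the margin than in the center of the quadruple mutant was not shown to differ between the pieces. With the leaf pool as a replicate block the adjusted p was 0.0691 for BLH2, 0.0562 for BLH4 and 0.0755 for KNAT4, closer to the threshold and still short of it.

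Across the 18 libraries the log2 levels of the members are given as correlations that describe these samples, which share genotypes and pieces, with no test. KNAT4 ran with BLH2 (Pearson r = 0.92), with BLH4 (r = 0.87) and with KNAT3 (r = 0.79). BLH1 ran opposite to KNAT3 (r = −0.79) and KNAT4 (r = −0.70). Among all tested loci with a symbol, the most similar to KNAT3 were TCP2 (r = 0.948), one of the mutated genes, and TCL1 (r = 0.936). TCP2 was at 63.3 and 65.2 CPM in the Col-0 margin and center, and at 7.35 to 10.8 CPM in the mutant groups. A gene lower in both mutants thus runs with TCP2, and this r repeats the genotype difference of KNAT3. The most similar to KNAT4 were RPL12-C (r = 0.988) and PSRP3/1 (r = 0.964), those to BLH4 FAD7 (r = 0.968) and PSAN (r = 0.966), and those to BLH2 CHAT (r = 0.953) and 2-Cys Prx B (r = 0.939). KNAT5 had UBQ14 (r = 0.826) and ATRER1C1 (r = 0.811), and BLH1 had TGG2 (r = 0.919) and AFH1 (r = 0.905).

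Markers of cell types moved with the quadruple mutant margin as well. All 5 mesophyll markers were lower, with sums of 65107 to 69698 CPM in Col-0 and 31491 to 35983 CPM in the quadruple mutant. All 5 phloem markers were lower, from 424 to 463 CPM down to 97.2 to 113 CPM, and 4 of 5 xylem markers were lower, from 93.7 to 111 CPM down to 78.0 to 79.9 CPM. All 5 markers of dividing cells were higher, from 90.6 to 95.4 CPM up to 260 to 312 CPM. In the center, 5 of 5 mesophyll and 4 of 5 phloem markers were lower, 5 of 5 xylem markers were higher and 1 of 5 markers of dividing cells was lower. In the double mutant margin, where KNAT3 was the member called, 5 of 5 mesophyll markers (48494 to 53045 CPM) and 4 of 5 phloem markers (266 to 307 CPM) were lower, and 5 of 5 markers of dividing cells (130 to 165 CPM) were higher. In the double mutant center, where KNAT3 and BLH1 were called, 2 of 5 xylem markers were higher and 1 of 5 phloem markers was lower. Of all loci tested, 43.9% were called against Col-0 in the quadruple mutant margin and 31.1% in its center. For the double mutant these shares were 14.1% in the margin and 6.15% in the center. The count of 1 of 5 markers of dividing cells in the quadruple mutant center is near the 15.8% of all loci that were lower there. No marker of these 4 lists was at 0 reads over all libraries, and their part in the changes of the KNOX and BELL genes was not tested.

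The other TALE homeobox genes include BELL genes and KNAT7, which is known for a role in secondary walls, and 10 of 12 passed the filter. In the quadruple mutant margin 3 were higher and 2 lower, where 22.1% of all loci tested were higher and 21.8% lower. In its center 5 were higher and 1 lower, where the shares were 15.2% and 15.8%. BLH5 held 73 reads over the quadruple mutant margin libraries, against 11 over those of Col-0. BLH5 and BLH8 passed the filter through groups in which they were higher, so these counts beside the background are a description. ATH1, a BELL gene active at the shoot base, rose from 25.1, 26.5 and 26.7 CPM in the Col-0 margin to 42.0, 43.4 and 45.8 CPM in the quadruple mutant margin (0.74 ± 0.09, adjusted p = 1.01e-06) and by 0.38 ± 0.09 in the center (adjusted p = 0.00286). BEL1, known for ovule development, fell from 22.9, 25.3 and 31.0 CPM to 13.5, 9.88 and 12.5 CPM in the margin (−1.15 ± 0.15, adjusted p = 1.88e-06) and by 1.34 ± 0.17 in the center (adjusted p = 4.57e-06). The libraries of the groups did not overlap for either gene in the margin. BLH10 was lower in the margin (−0.30 ± 0.12, adjusted p = 0.0416).

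BLH8, also called POUND-FOOLISH and a KNOX partner in the inflorescence, had 1 read in the margin of Col-0 and 27 in that of the quadruple mutant, a depth-scaled ratio of 17.5 (95% counting interval 2.89 to 718). The edgeR test, which has its own estimate of the difference, gave an adjusted p of 0.00105. In the center BLH8 rose from 1.43 ± 0.729 to 4.11 ± 0.683 CPM (2.83-fold, adjusted p = 0.000872), with the limit that it passed the filter through the groups in which it was higher. In Col-0 the 35 center reads of BLH8 against 1 margin read gave a ratio of 29.8 (95% counting interval 5.00 to 1209). The edgeR value for margin against center was −4.53 ± 0.78 (adjusted p = 0.000524), and BEL1 was higher in the margin by 0.53 ± 0.14 (adjusted p = 0.02). These were the 2 other TALE genes called between the Col-0 pieces, of 10 tested, where 11.4% of all loci tested were called.

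**Figure D5:**
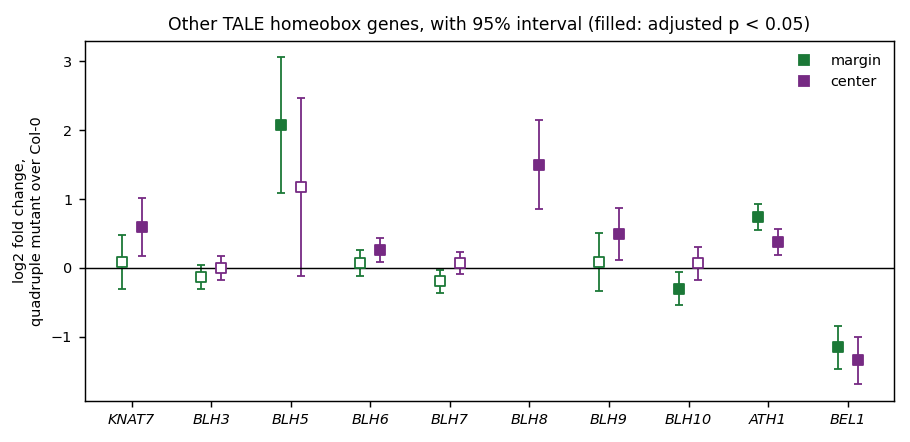
Log2 fold change of the quadruple mutant over Col-0 (y axis) with its 95% interval for the 10 other TALE homeobox genes that passed the filter, with margin values in green and center values in purple, filled where the adjusted p is under 0.05. ATH1 is higher and BEL1 lower in both pieces, and the margin value of BLH8 is left out because its Col-0 margin libraries held 1 read in all.

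Of 10 regulators known to set where KNOX genes are expressed, 5 passed the filter and 4 of these rose in the quadruple mutant in each piece, where 22.1% of all loci tested rose in the margin and 15.2% in the center. AS1, the MYB-type partner of AS2 in repressing KNAT1, rose from 27.7, 24.7 and 28.3 CPM in the Col-0 margin to 54.6, 59.3 and 59.4 CPM in the quadruple mutant margin (1.11 ± 0.11, adjusted p = 4.39e-08). AS2, a LOB-domain factor, rose from 2.06, 2.68 and 3.44 CPM to 9.61, 8.10 and 9.25 CPM in the margin (1.70 ± 0.17, adjusted p = 1.07e-07) and by 0.94 ± 0.16 in the center (adjusted p = 0.000193). Neither gene's groups overlapped in the margin. The KNAT1 and KNAT6 reads of the quadruple mutant margin thus stood beside higher transcripts of both repressors. FIL, an abaxial YABBY gene, rose by 0.27 ± 0.07 in the center (adjusted p = 0.00551). In Col-0, BOP2, which acts at the leaf base, was below its center level in the margin, at 2.07 ± 0.360 against 4.21 ± 1.05 CPM (adjusted p = 0.0183), the only one of the 5 called there. Of all loci tested, 11.4% were called between the Col-0 pieces. AS1 and BOP2 overlap a gene on the other strand, ACT1 and AT2G41375, so their reads are uncertain without a stated strand.

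Of 5 hormone genes known to respond to class I KNOX proteins, 2 passed the filter. GA20OX1, a gibberellin synthesis gene that class I KNOX proteins are known to repress, fell from 2.06, 2.68 and 2.15 CPM in the Col-0 margin to 0.458, 1.10 and 0.630 CPM in the quadruple mutant margin (−1.63 ± 0.35, adjusted p = 0.000753). GA2OX2, a gibberellin-inactivating enzyme gene that such proteins are known to activate, fell by 1.07 ± 0.33 there (adjusted p = 0.0111). The 2 genes thus fell together, and in the center neither passed the test (adjusted p = 0.234 for GA20OX1 and 0.606 for GA2OX2). In Col-0, GA20OX1 was below its center level in the margin by −0.97 ± 0.27 (adjusted p = 0.0208). IPT7, a cytokinin synthesis gene induced by STM, had 2 reads over all libraries and was not tested.

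OVATE family proteins bind TALE proteins, and 2 of 5 of their genes passed the filter. OFP1 rose from 1.38, 1.22 and 0.861 CPM in the Col-0 margin to 3.02, 2.53 and 2.73 CPM in the quadruple mutant margin (1.26 ± 0.33, adjusted p = 0.00374). OFP5 fell from 4.81, 4.39 and 4.59 CPM to 2.47, 3.46 and 2.42 CPM there (−0.70 ± 0.24, adjusted p = 0.0202). The groups did not overlap for either gene, and in the center neither passed the test (adjusted p = 0.159 for OFP1 and 0.0675 for OFP5). OFP5 overlaps genes on the other strand, so its reads are uncertain in the same way.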

How the data were processed

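RNA was measured in 18 libraries of leaf 5 margin and center, made with an Illumina TruSeq RNA kit per the labels' protocols. The authors deposited 1 table of unnormalised whole read counts for 33602 loci, with 5 summary rows that stayed out of library sizes and tests (multiply aligned reads 3.71% to 16.0%, reads without a feature 0.497% to 1.15%, ambiguous reads 1.38% to 1.57%). TAIR10, TopHat2 2.0.13, HTSeq 0.7.2 and edgeR 3.8.6 are named in the submitters' processing notes; options, strand and the release of the annotation: not given in the sources used here. All 10 members matched the count table and the RefSeq annotation of TAIR10.1, from which coordinates, coding lengths and sequences were read.

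Counts were tested with edgeR 4.0.16 (R 4.3.3): TMM scaling, filterByExpr by group (17763 loci), 1 mean per group over all 18 libraries, 2-sided quasi-likelihood F test, Benjamini-Hochberg adjustment over all loci tested. The SE was taken from the F statistic. The 12 comparisons were margin against center in 3 genotypes, genotypes within a piece, and their interactions. The fit was also run on simulated data, whose outcome is not given here and is no support for the results. Genes outside the 10 are named by a rule of up to 2 per list and direction with the lowest adjusted p in the quadruple mutant against Col-0 and in margin against center of Col-0. Likeness is Pearson's r over 18 libraries (log2 CPM, prior count 2). The members and lists were chosen with earlier results of these data known. Depth, given with the results, limits class I KNOX genes to a few reads. Libraries of a group pooled different plants, and whether these were separate experiments is not stated, so p-values measure the spread between these pools.

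Whether equal replicate numbers pair libraries was checked with deviations from group means over 5000 variable genes. Within a genotype, a margin and a center library of equal number had r of 0.196 to 0.384 (9 pairs), and unequal numbers gave −0.238 to 0.0383 (18 pairs). Equal numbers were therefore taken to mark a leaf pool, although the correlation alone cannot show that the plants were the same. The leaf pool was an alternative replicate block. Alternatives were DESeq2 1.42.0, RLE and upper quartile scaling, no filter, only the libraries compared, both blocks, each library left out, and, added after seeing the data, both libraries rich in multiply aligned reads left out.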

Additional observations from a re-analysis of the deposited data

How the results depend on the processing

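No called value of a member changed sign under any alternative, and of the values of single genes 1146 kept their side of the threshold, 61 lost a call and 13 gained one. KNAT3 in both mutants against Col-0, and KNAT4, BLH2 and BLH4 in the quadruple mutant against Col-0, kept their calls in every setting run. The numbers of members called changed by over 1.5 times as follows. Margin against center in Col-0 (2) gave 1 with the libraries compared alone, with the number as a replicate block and without both libraries rich in multiply aligned reads, and 0 with DESeq2. In the double mutant (1) it gave 0 with DESeq2 and with the libraries compared alone, 3 with the leaf pool as a replicate block, and 2 with the number as a block and with upper quartile scaling. In the quadruple mutant (1) it gave 0 with DESeq2 and without the filter. The double mutant against Col-0 in the center (2) gave 1 with DESeq2, without the filter and with the libraries compared alone. Quadruple against double mutant in the center (2) gave 0 in those 3 settings and 1 with the number block and with RLE size factors. The interaction of the double mutant (0) gave 1 with the leaf pool block. Those blocks changed the number of members called in no other comparison by that much. Over all loci, the leaf pool block raised the calls from 1334 to 3041 between the pieces of the double mutant and from 78 to 1347 in its interaction. DESeq2 and the libraries compared alone gave fewer calls over all loci in each comparison where they changed the count of members. The cause of these changes was not tested.

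With 1 library left out, the counts ranged from 0 to 1 in margin against center of Col-0, from 0 to 2 in the double mutant and from 0 to 1 in the quadruple mutant. Against Col-0 they were 1 to 2 (double mutant margin), 1 to 1 (its center), 4 to 6 (quadruple mutant margin) and 5 to 6 (its center). Between the mutants they were 3 to 3 in the margin and 0 to 1 in the center, and for the interactions 0 to 0, 0 to 1 (quadruple mutant against Col-0) and 0 to 0. Calls gained by leaving out 1 library, beside those named with the results, were BLH1 in the double mutant margin without Col-0 margin 1 (0.32), KNAT4 (0.37) and KNAT5 (−0.48) between the pieces of the double mutant without its center 3, and BLH4 between the pieces of the quadruple mutant without its margin 1 (−0.21). Among the other lists, over all settings, the quadruple mutant center had 3 to 6 other TALE genes, 2 to 4 KNOX regulators and 0 to 2 markers of dividing cells called, and its margin 2 to 4 xylem markers, 1 to 2 hormone genes and 1 to 2 OVATE genes. Number pairs across genotypes correlated at −0.233 to 0.173, so that number pairs no samples. Other scaling moved the median of all loci by at most 0.028. Depth limits STM, KNAT1, KNAT2 and KNAT6, for which single reads decide.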
